A study of Ovis aries with 42 samples.

Results

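RNA sequencing of hypothalamus compared the luteal phase with anestrus in ewes of the Rasa Aragonesa, a breed of sheep from Spain. The comparison took the 7 hypothalamus libraries labelled Luteal (numbers 1 to 7) and the 7 labelled Anestrous (numbers 15 to 21), 14 of the 42 libraries of the series. The others were 7 follicular hypothalamus libraries, which entered the fit so that the phases shared an estimate of the spread, and 21 pars tuberalis libraries. All were female and adult, and no treatment is given. The labels name no ewe, age in years, day of the cycle, date or batch. Whether the libraries of a phase stem from different animals is not stated, so the p-values measure only the spread between these samples, which may be technical.

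The hypothalamus drives reproduction through neurons that secrete gonadotrophin-releasing hormone, which acts on the pituitary. In the luteal phase a corpus luteum secretes progesterone, which slows the pulses of this hormone. In anestrus the ovary does not cycle, and in sheep the long days of spring and summer strengthen the restraint that oestradiol places on the same neurons. Both states are thus known for a slow pulse pattern, reached by different routes. The comparison asks which transcripts in the whole tissue separate them. The deposited table gives Ensembl sheep gene IDs with no names, so only IDs can be printed and no pathway is described.

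The tissue label was checked with features chosen in the follicular libraries alone, which are no members. There, 62 features were at least 32-fold higher in the pars tuberalis, the pituitary tissue around the stalk, and 136 were at least 32-fold higher in the hypothalamus. The 62 pars tuberalis features took from 0.00221% to 0.0444% of the counts in the 14 libraries, against 0.296% to 0.798% in the luteal and anestrous pars tuberalis libraries. The 136 hypothalamus features took from 1.05% to 4.16%, against 0.0190% to 0.108%. None of the 14 libraries overlapped the pars tuberalis range on either measure.

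The luteal libraries held from 18511124 to 37726207 counts with a median of 25299516, and the anestrous ones from 21483731 to 33586399 with a median of 23137828. Library 6 was the deepest luteal library and library 15 the deepest anestrous one. Features with at least 1 count numbered from 17439 to 19307 with a median of 18244 in luteal libraries, and from 17583 to 19631 with a median of 17964 in anestrous libraries. Library 15 held the most. Neither measure separated the phases (difference of means 1809743 counts, exact permutation p = 0.524, and 193 features, exact permutation p = 0.590, each with an adjusted p of 0.897 over 5 library measures). These tests were two-sided and ran over all 3432 arrangements of the labels, which allow a p of 0.000583 at the lowest.

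The makeup of the libraries varied widely within each phase. The 10 largest features of a library took from 19.4% to 43.0% of its counts in the luteal phase, with a median of 31.4%, and from 14.8% to 40.8% in anestrus, with a median of 35.1%. Luteal library 3 had the highest share, and anestrous library 15 the lowest, below the next anestrous library at 24.9%. The phases overlapped over nearly their whole range (difference of means -1.81 percentage points, exact permutation p = 0.717, adjusted p = 0.897). The share of counts in the 62 pars tuberalis features had a median of 0.00835% in luteal and 0.00622% in anestrous libraries (exact permutation p = 0.996, adjusted p = 0.996). No difference in the carry-over of pars tuberalis, as far as these features measure it, was detectable.

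**Figure D1:**
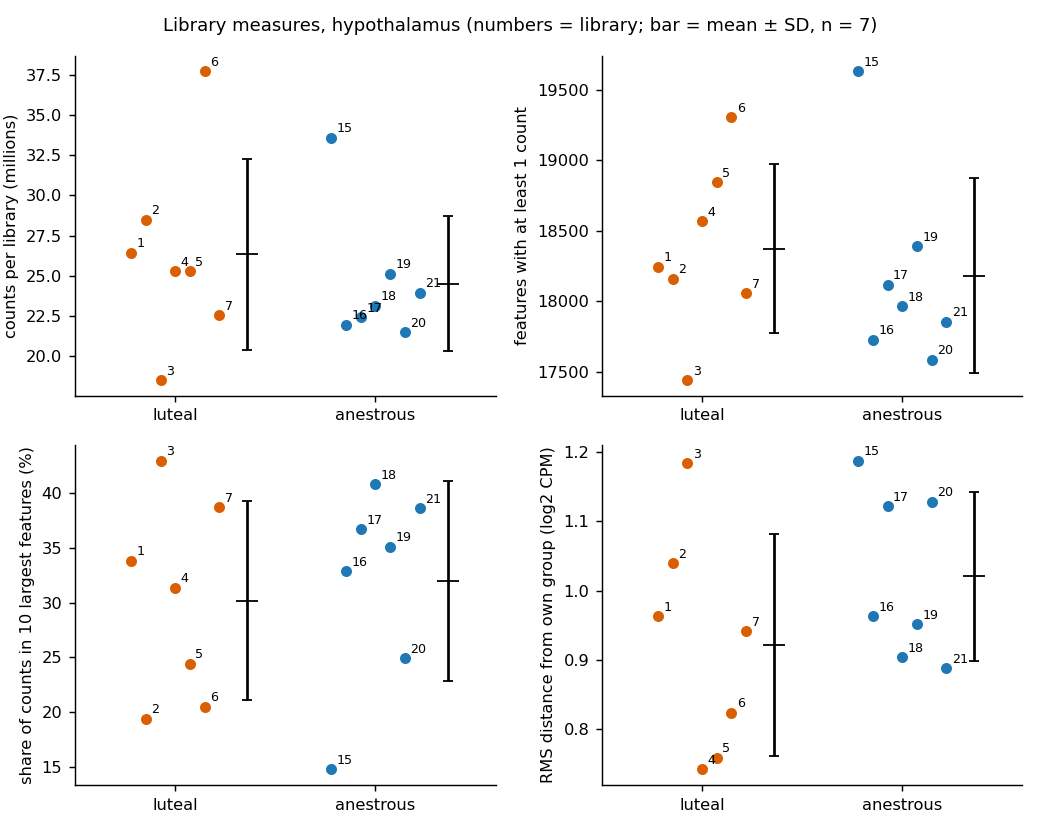
Library measures of the 7 luteal (orange) and 7 anestrous (blue) hypothalamus libraries, numbered by library: total counts, features with at least 1 count, percent of counts in the 10 largest features, and root-mean-square distance from the mean of the other libraries of the same phase in log2 CPM. Bars are mean ± SD (n = 7); the phases overlap in every panel, and library 15 has the most features (19631) and the lowest share in the largest features (14.8%).

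Over the whole transcriptome the phases were not separated. Phase accounted for 6.79% of the variance of log2 CPM (CPM are counts relative to the TMM-adjusted library size) among the 14 libraries, against a mean of 7.69% over all label arrangements (one-sided exact permutation p = 0.659). Without library 15 the share was 9.10%, against a mean of 8.33% (exact permutation p = 0.283). The first principal component held 19.2% of the variance and the second 16.3%, and luteal and anestrous libraries overlapped on both. Luteal libraries 3 and 1 lay near opposite ends of the first component, and anestrous libraries 17 and 20 at opposite ends of the second.

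**Figure D2:**
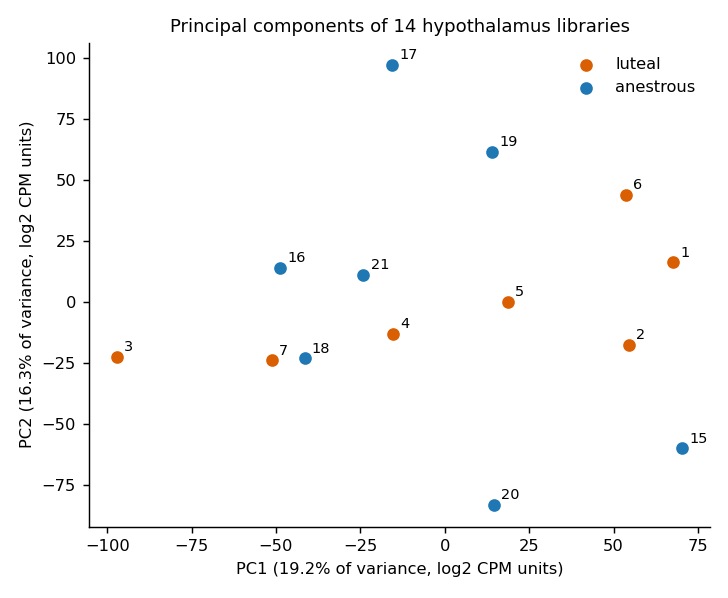
Scores of the 14 hypothalamus libraries on the first (19.2% of variance) and second (16.3%) principal component of log2 CPM, coloured by phase and numbered by library. Luteal libraries spread mainly along the first component and anestrous libraries along the second, with no gap between the phases.

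The spread inside each phase did not differ detectably. A library lay from 0.741 to 1.18 log2 units, with a median of 0.941, from the mean of the other luteal libraries, and from 0.888 to 1.19, with a median of 0.963, from that of the other anestrous ones. Luteal library 3 and anestrous library 15 were the farthest from their own phase. The mean distances did not differ detectably (0.922 ± 0.160 luteal, 1.02 ± 0.122 anestrous, SD, n = 7 each; exact permutation p = 0.253, adjusted p = 0.897). The median SD of a feature was 0.43 log2 units among luteal and 0.53 among anestrous libraries. It was 0.43 among the 6 anestrous libraries other than 15. Leaving out a far library lowers an SD, and luteal library 3 was not left out in the same way, so this does not compare the phases alike. The median correlation of log2 CPM across features was 0.912 between luteal libraries, 0.894 between anestrous libraries and 0.895 between phases (features are not independent replicates).

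No feature passed the test between luteal and anestrous hypothalamus. EdgeR's quasi-likelihood test called 0 of 16350 features (0.0%) at an adjusted p of 0.05, and the lowest adjusted p was 0.503. At an unadjusted p under 0.05 there were 726 features (4.44%), fewer than the 818 that make 5%. Of these, 240 (1.47%) were higher and 486 (2.97%) lower in the luteal phase. DESeq2 called 3 (0.0183%), all lower in the luteal phase, and limma-voom called 0. In whole tissue, fewer cells of a type and less RNA per cell cannot be told apart in any such difference.

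The counts of features do not say how large a difference could have been missed, which the intervals do. The 95% interval of the luteal against anestrous fold change lay wholly within 2-fold in either direction for 11364 features, 69.5% of those tested. It lay within 1.5-fold for 5933 (36.3%). Without library 15 these shares were 66.7% and 33.5%. The share rose with the level. An interval within 2-fold was reached by 89.7% of the 1367 features at 100 CPM or more, by 87.9% of the 7420 at 10 to 100 CPM, by 58.5% of the 5946 at 1 to 10 CPM and by 8.41% of the 1617 under 1 CPM. The standard error of the log2 fold change had a median of 0.20 in the first of these classes, 0.19 in the second, 0.32 in the third and 0.65 in the last. For most features of moderate level, a change of over 2-fold between the phases thus lay outside the interval, and for those under 1 CPM it mostly did not.

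The features at an unadjusted p under 0.05 were spread over the levels too. They made 2.97% of the features under 1 CPM, 4.81% of those at 1 to 10 CPM, 4.68% at 10 to 100 CPM and 3.29% at 100 CPM or more. No class reached 5% in this edgeR fit. Of the 726, 479 had an estimate within 2-fold. The luteal libraries lay wholly below the anestrous ones for 2 features and wholly above for 1, which is 0.0183% of the features tested. In these 3 the nearest libraries of the phases were at most 1.14-fold apart.

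ENSOARG00000016596 had the lowest p of all. Its level was 12.4, 15.5 and 18.6 CPM in luteal libraries (lowest, median and highest of 7) and 21.1, 23.98 and 26.5 CPM in anestrous libraries. All 7 luteal libraries lay below all 7 anestrous ones, with luteal library 7 and anestrous libraries 15 and 16 the nearest to each other. The luteal level was 1.53-fold lower (log2 fold change -0.61 ± 0.117 SE, edgeR adjusted p = 0.503). The 7 follicular libraries ran from 12.9 to 20.2 CPM with a median of 17.5 CPM. DESeq2 called this feature (adjusted p = 0.00118), as did edgeR with 5 surrogate variables (adjusted p = 0.0458).

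ENSOARG00000002400 came next, at 90.6, 139 and 166 CPM in luteal libraries and 133, 221 and 329 CPM in anestrous ones. Anestrous libraries 18 and 21 held the high values, and anestrous library 15 lay among the luteal libraries, of which 3 were below every anestrous one. The luteal level was 1.77-fold lower (log2 fold change -0.82 ± 0.191 SE, edgeR adjusted p = 0.993). Follicular libraries ran from 103 to 172 CPM with a median of 151 CPM. With 5 surrogate variables edgeR called it (adjusted p = 0.000422), and DESeq2 did not unless library 15 was left out (adjusted p = 0.00151).

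Among features higher in the luteal phase, ENSOARG00000000770 had the lowest p. It lay at 12.5, 18.3 and 21.4 CPM in luteal and 10.4, 12.3 and 13.3 CPM in anestrous libraries. Of the 7 luteal libraries, 6 lay above every anestrous one, and library 3 lay within the anestrous range. The luteal level was 1.45-fold higher (log2 fold change 0.54 ± 0.136 SE, edgeR adjusted p = 0.993). The follicular libraries held from 12.6 to 18.3 CPM.

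ENSOARG00000007825 lay at 9.13, 12.4 and 15.3 CPM in luteal and 5.999, 7.96 and 11.5 CPM in anestrous libraries. Library 15 was the highest anestrous library, and 5 of 7 luteal libraries lay above it. The luteal level was 1.501-fold higher (log2 fold change 0.59 ± 0.155 SE, edgeR adjusted p = 0.993). Follicular libraries ran from 10.96 to 13.8 CPM. DESeq2 called this feature and ENSOARG00000000770 only without library 15 (adjusted p = 0.00415 and 0.0362). As all 4 features were picked for a low p in these same libraries, the separation of their libraries adds no support.

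**Figure D3:**
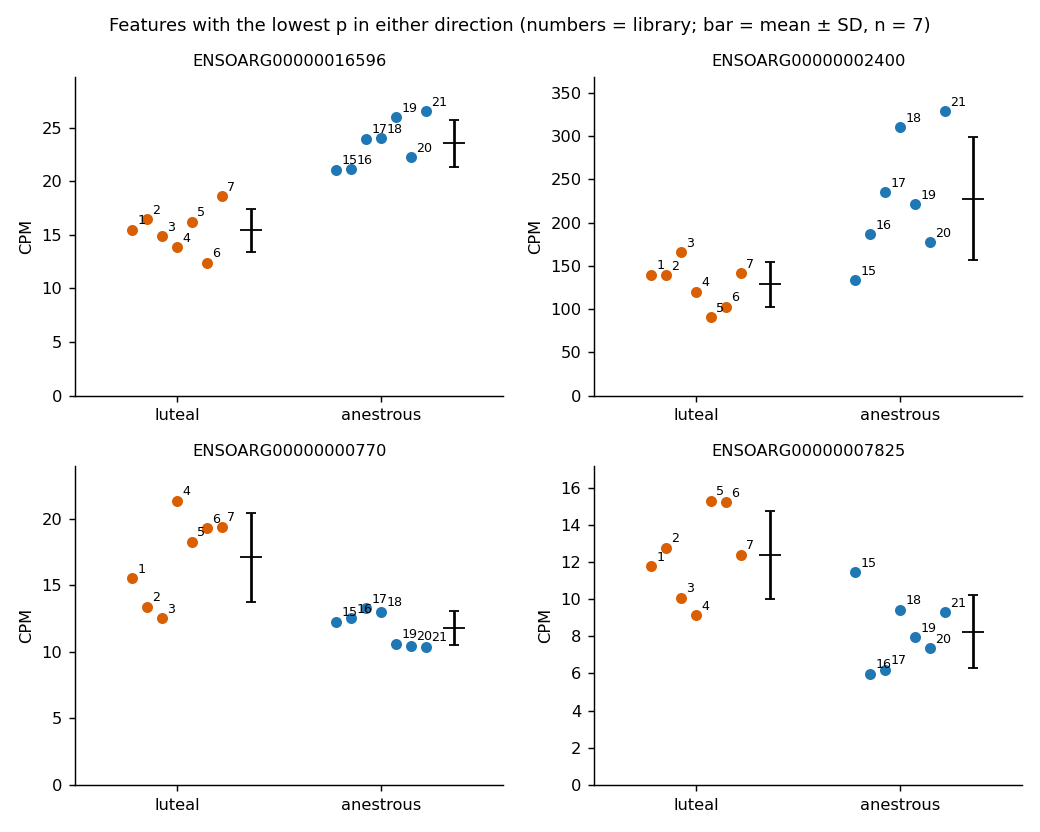
CPM of the 2 features with the lowest p among those lower (upper row) and the 2 among those higher (lower row) in the luteal phase, in each of the 14 hypothalamus libraries, with mean ± SD (n = 7). Only the first, ENSOARG00000016596, shows no overlap between phases; library 15 lies on the luteal side of the other anestrous libraries for ENSOARG00000002400 and ENSOARG00000007825.

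Other features with a low p differed in what they rested on. Some showed a small shift in most libraries. The feature ranked 4 by p, one of the 3 called by DESeq2, lay from 15.98 to 19.1 CPM in luteal and from 20.99 to 27.2 CPM in anestrous libraries (log2 fold change -0.40, edgeR adjusted p = 0.993). Others rested on a single library. The feature ranked 5 lay from 11.97 to 18.9 CPM in luteal libraries, and in anestrous ones from 11.03 CPM to 1954 CPM, with a median of 16.6 CPM. Library 19 held the high value, and the next highest of the 14 libraries was 32.8 CPM. The feature ranked 6 lay at 894 CPM in library 19 and at most 7.18 CPM in any other of the 14. Their fitted log2 fold changes of -4.28 and -5.97 rest on that library.

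Large fitted differences often rested on a single library. Of the 726 features, 75 were beyond 4-fold, 65 of them lower in the luteal phase. In 37 of the 75, over 50% of the CPM summed over the 14 libraries stood in 1 library. This was library 19 for 20 features, library 17 for 10, library 20 for 4, library 15 for 2 and luteal library 6 for 1. Over all features tested, 81 had over 50% of their summed CPM in 1 library. A stricter measure gave a like picture: 23 features (0.141%) reached at least 10 CPM in a library and at least 10-fold the next highest library. Of these, 12 peaked in library 19, 7 in library 17, 3 in library 20 and 1 in library 15, and 0 in a luteal library. Of all features tested, 432 had an estimate over 2-fold lower and 132 over 2-fold higher in the luteal phase (435 and 299 without library 15), and the part of these few anestrous libraries in that imbalance was not tested.

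Library 15 stood apart from the other anestrous libraries over much of the transcriptome. Among the 14820 features with counts in all 14 libraries, it was the highest or the lowest of the 14 for 41.5%, where an equal share is 14.3%. The next were library 20 at 22.4% and luteal library 3 at 21.8%, and the lowest was luteal library 5 at 3.81%. Its mean correlation with the other anestrous libraries, 0.857, was the lowest of any library with its own phase. All 7 anestrous libraries, library 15 included (0.884), had a higher mean correlation with the luteal libraries than with each other. Library 15 enters the means of the other anestrous libraries. The luteal libraries went the other way, each with a higher mean correlation with its own phase. Library 15 also had the most counts and features and the lowest share of counts in the largest features among the anestrous libraries, and the part of these in its profile was not tested.

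Leaving out library 15 changed the distribution of p-values, and the number of calls in 3 of the 4 analyses run both ways on all phases. Without it, edgeR still called 0 of 16419 features (lowest adjusted p = 0.176), while 1752 (10.7%) had an unadjusted p under 0.05. Of these, 811 were higher in luteal libraries and 941 were lower. Leaving out any other of the 14 libraries gave from 611 to 900 such features and 0 calls. With library 15 left out, DESeq2 called 74 of the 16419 features (23 higher, 51 lower), limma-voom 2 and edgeR with 4 surrogate variables 110 (33 higher, 77 lower). In that DESeq2 run 2590 features received no adjusted p, against 43 with library 15 kept. The largest log2 fold change among its calls was 26.2 in size, and what such calls rest on was not tested. DESeq2 and the surrogate-variable fit shared 19 features, 25.7% of the former list and 17.3% of the latter. Luteal libraries lay wholly to one side of the 6 remaining anestrous ones for 35 features (0.214%), 16 below and 19 above.

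**Figure D4:**
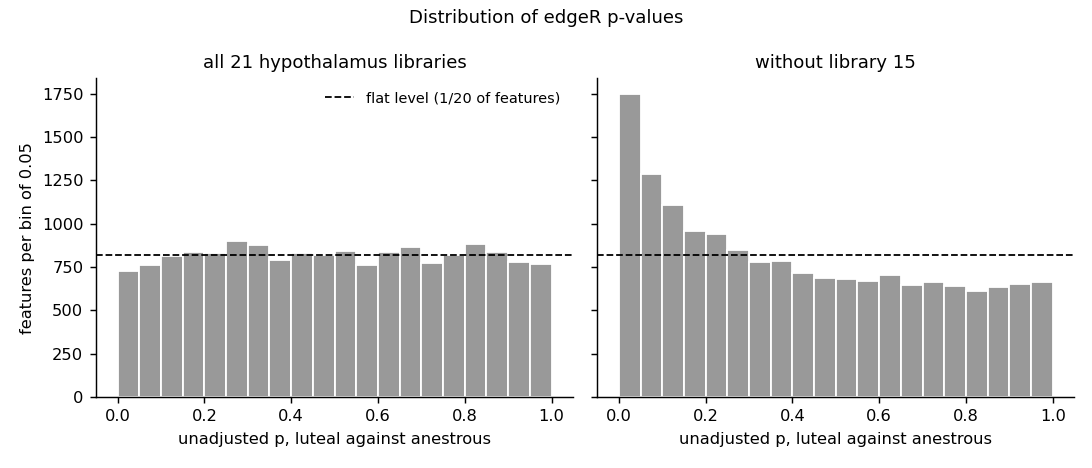
Number of features per p-value bin of 0.05 in edgeR's luteal against anestrous test, with all 21 hypothalamus libraries (left) and without anestrous library 15 (right); the dashed line is 1/20 of the features tested. The left distribution is flat with 726 features in the lowest bin, and the right one rises to 1752.

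Each library was then set against the differences found without it. For each of the 14, the features at an unadjusted p under 0.05 in the fit that left it out were taken, and the library was asked to which phase mean, of the other libraries, it lay nearer. For luteal libraries 1, 2 and 7 and anestrous library 16, the share of features nearer the own phase was 61.3%, 61.6%, 58.4% and 60.6%. It was from 32.1% to 52.8% for the other libraries, library 15 apart. Over the 14 libraries the median was 46.5%, and 6 lay above 50%. Over all features tested the same share ran from 42.8% to 55.4% in the libraries other than 15. The share among the low-p features exceeded that over all features in 7 of the 14 libraries (1, 2, 3, 4, 7, 16 and 19) and fell short of it in the other 7.

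Library 15 gave the lowest share. In the 1750 features it lay nearer the anestrous mean in 261 (14.9%), against 33.4% over all features tested, and so nearer the luteal mean in the rest. EdgeR called none of these features without library 15. In most of them library 15 thus lay nearer the luteal mean, as it did, to a lesser extent, over all features tested. The rise in low-p features on leaving library 15 out rests on the same values, so these results are not independent. The library keeps its label Anestrous here.

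**Figure D5:**
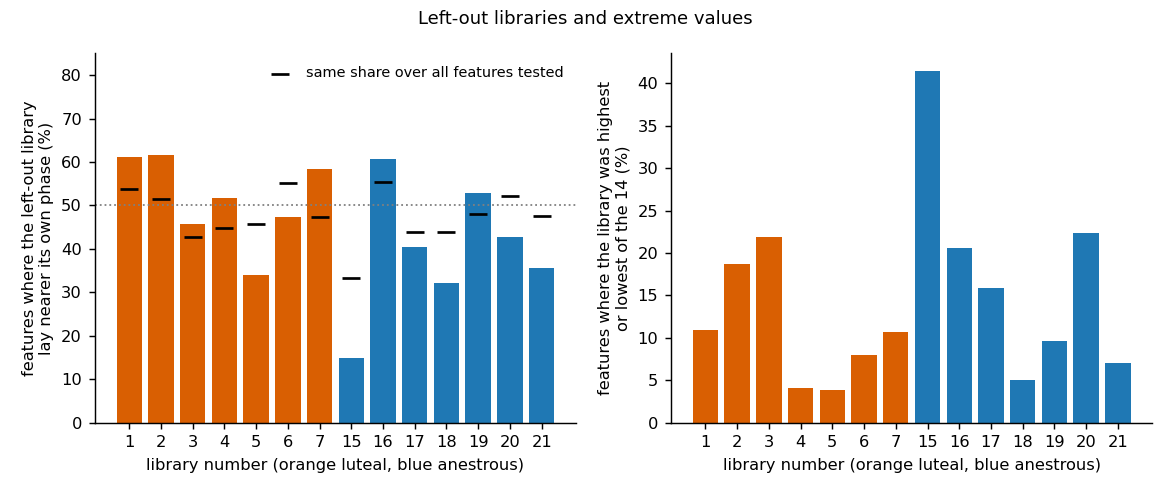
Left, for each hypothalamus library, the percent of features at an unadjusted p under 0.05 in the fit without that library in which it lay nearer its own phase (bars), with the same percent over all features tested (black marks) and a line at 50%. Right, the percent of features in which the library was the highest or the lowest of the 14; library 15 is lowest on the left (14.9%) and highest on the right (41.5%).

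The last question was whether the luteal against anestrous difference was particular to the hypothalamus. In a fit of all 42 libraries the difference between the tissues was called for 0 of 17296 features (0.0%) by edgeR (lowest adjusted p = 0.510), and 719 (4.16%) had a p under 0.05 before adjustment, where 5% is 865. Without library 15 there were 1194 (6.87%) and again 0 calls. DESeq2 called 7, of which 4 were among those 719, and limma-voom called 0. Log2 fold changes in the hypothalamus and the pars tuberalis, which share no library, were nearly unrelated across features (Pearson r = 0.0376, Spearman rho = 0.0555, over 17296 features that are not independent replicates). In the pars tuberalis edgeR called 0 features, and 441 had an unadjusted p under 0.05. With so few differences in either tissue, this correlation cannot tell whether they are particular to one. The fit of 42 libraries differs from that of hypothalamus alone in the features tested, the scaling and the spread. In it 1231 features (7.12%) were at an unadjusted p under 0.05 in the hypothalamus, against 726 (4.44%) in the fit of hypothalamus alone. None of the latter was called, and calls among the 1231 are not given here. Of the 1231, 54.9% had the same direction in the pars tuberalis, as had 53.1% of all features.

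In the pars tuberalis, ENSOARG00000016596 ran from 9.59 to 48.0 CPM in luteal libraries, with a median of 14.7 CPM, and from 12.4 to 16.5 CPM in anestrous ones, with a median of 15.2 CPM. The hypothalamus difference minus the pars tuberalis difference was -1.08 ± 0.293 SE on the log2 scale (edgeR adjusted p = 0.919). ENSOARG00000002400 ran from 16.3 to 375 CPM in luteal pars tuberalis, with a median of 22.4 CPM below the anestrous median of 28.3 CPM, while its luteal mean of 106 ± 134 CPM lay above the anestrous mean of 31.3 ± 7.40 CPM (SD, n = 7 each). The difference between tissues was -2.57 ± 0.612 SE (edgeR adjusted p = 0.510). For both features the luteal median in the pars tuberalis lay below the anestrous one although the fitted log2 fold change was above 0 (0.48 and 1.76). Their unadjusted edgeR p in the pars tuberalis was 0.0264 and 0.000258, and no feature was called there. The highest luteal library reached far above the anestrous range (48.0 against at most 16.5 CPM, and 375 against at most 45.5 CPM). How many other luteal libraries did so is not given here. For the features higher in the luteal hypothalamus, ENSOARG00000000770 and ENSOARG00000007825, the differences between tissues were 0.34 ± 0.235 and 0.49 ± 0.197 SE on the log2 scale (edgeR adjusted p rounding to 1 for both).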

How the data were processed

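The deposited table holds raw counts, unnormalized by the authors, for 27054 Ensembl sheep gene IDs with a column per library. The submitters' processing notes name DESeq2, HISAT2 2.1.0, StringTie 1.3.5, SAMtools 1.7, Trimmomatic 0.38, FastQC 0.11.5 and R 3.5.1 without their roles. The genome build, annotation, strand setting and treatment of shared reads are not given in these sources, which leaves near-identical and overlapping genes uncertain. Per the labels' protocols, RNA came from frozen tissue (about 0.5 g, lipid tissue kit, integrity number above 7) and was sequenced on the Illumina HiSeq.

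The RefSeq gene table at hand matched 0 of the IDs, so the gene and marker lists that had been drawn up were not used. The text names, by lowest p, 2 features lower and 2 higher in the luteal phase, and other features by rank only. The members, lists and tests were chosen with earlier results of these data known.

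EdgeR 4.0.16 in R 4.3.3 (TMM, filterByExpr with a minimum count of 10, robust quasi-likelihood fit, Benjamini-Hochberg adjustment, threshold 0.05) was run on the 21 hypothalamus libraries, and on all 42 for the difference between tissues (common biological coefficient of variation 43.3% and 39.8%). Log2 CPM use a pseudocount of 0.5. Library measures were compared by exact permutation. Alternatives were DESeq2 1.42.0 (outlying counts not replaced), limma-voom (limma 3.58.1), RLE size factors, other filters, only the 14 libraries, surrogate variables (sva 3.50.0), a covariate or omission of the largest features, and leaving out libraries. The tests were checked on simulated counts. Among the 14 libraries the closest pair, 3 and 7, differed far beyond sampling noise (chi-square over degrees of freedom 29.3), so each was kept as its own sample. There were 0 columns of no sample.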

Additional observations from a re-analysis of the deposited data

Results flagged for a closer look

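Library 15 stood apart in the anestrous group on 2 measures. It held 33586399 counts, where the next anestrous library held 25123805, and it had 19631 features with at least 1 count, where the next had 18389. The gap to the nearest library was 0.699 and 0.606 of the group's range, above Dixon's 95% critical value of 0.568 for 7 samples. In all, 22 sets of 7 values were checked in this way (the 5 library measures in both phases and the 4 named features in the 3 phases), and chance flags about 1 in 20. A deeper library detects more features, so these measures are not independent of each other.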

How the results depend on the processing

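No paired analysis was possible because each library number occurs once and the labels tie no library to a ewe. EdgeR called 0 features under RLE size factors, both other filters, the fit of 14 libraries (also without library 15), either change for the largest features, and without each of the 14 libraries in turn (0 to 0). The count moved to 3 with DESeq2, 13 with surrogate variables, 74 with DESeq2 and 2 with limma-voom when library 15 was left out, and 110 with surrogate variables and library 15 left out, a setting added after the results were seen. The cause of these differences between tools was not tested. For the difference between tissues DESeq2 called 7, and the other settings 0. The 4 named features kept their direction in all 27 other settings. Features at an unadjusted p under 0.05 numbered from 526 (14 libraries) to 2967 (surrogate variables, library 15 left out).

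No library measure passed an adjusted p of 0.05 in any setting. Leaving out 1 library moved the luteal minus anestrous difference from -89974 to 3321116 counts (below 0 only without library 6), from -0.00463 to 0.00501 percentage points for pars tuberalis features (above 0 without 1, 2, 3, 7, 16 or 17), from 37.2 to 435 features detected, from -4.68 to -0.0129 percentage points for the 10 largest features, and from -0.141 to -0.0492 log2 units of distance. Features under 1 CPM had the largest median standard error, 0.65 log2 units, and how far depth sets it was not tested.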

Other observations

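Of the 10 features with the highest mean CPM over the 14 libraries, 9 differed from 5.38-fold to 8.20-fold between their lowest and highest library. Their summed CPM came to from 13.6% to 59.1% of the TMM-adjusted library size in luteal and from 8.36% to 48.2% in anestrous libraries. This is not a share of the counts, as the adjusted size differs from the counts a library held. All 9 had a lower fitted level in the luteal phase (log2 fold changes from -0.32 to -0.19), and none was called (lowest edgeR adjusted p = 0.993). How far the 9 vary together was not tested, so their shared direction does not count as 9 separate observations. The remaining one, ENSOARG00000009137, named here after its values were seen, ran from 58.7 to 110629 CPM in luteal libraries, with a median of 8683 CPM, and from 413 to 14285 CPM in anestrous ones, with a median of 6659 CPM. Its extremes, libraries 1 and 2, were both luteal (log2 fold change 2.02 ± 1.17 SE, edgeR adjusted p = 0.993).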
